A study of Mus musculus with 686 samples.

Results

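Lung taken from mice killed on the International Space Station (ISS), and from mice killed at matched times on Earth, made up 28 of the 686 small RNA libraries of the study. The members were all lung libraries of the TERM extraction (termination on orbit, or its counterpart on Earth), in 7 classes of RNA. FL denotes spaceflight (10 libraries), HGC the habitat ground control kept in flight hardware on Earth (9 libraries) and VGC the vivarium ground control in standard cages (9 libraries). All mice were female BALB/cAnNTac, for which the labels name no genetic change, were 3 or 8 months old, and were killed 22 to 24 days after launch or at the matching times on Earth. The FL arm held 5 mice of each age, HGC 4 of 3 months and 5 of 8 months, and VGC 5 of 3 months and 4 of 8 months. Each library came from the lung of a separate mouse, and equal mouse numbers in different arms mark different animals. Carcasses were frozen whole and thawed for dissection, those of FL on the ISS and those of the controls on the ground, so that flight and the place of freezing cannot be told apart. All mice ate food bars, and the study noted mold on those of FL and HGC. Large lungs were cut down before extraction, so that which airways and vessels a library covers is not known. All p-values measure the spread between mice of an arm in 1 mission.

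MicroRNAs (miRNAs) are short RNAs that guide the silencing complex to messenger RNAs, chiefly through the seed, bases 2 to 8 of the mature strand. The lung is dense in capillary endothelium, which carries miR-126a from an intron of Egfl7, and its airways carry multiciliated cells, which make the miR-34b/c and miR-449 families needed for motile cilia. Libraries of this kind also hold fragments of transfer RNA (tRNA), ribosomal RNA (rRNA), small nuclear RNA (snRNA), small nucleolar RNA (snoRNA), long non-coding RNA (lncRNA) and sequences listed as PIWI-interacting RNA (piRNA). These were counted as reads on each gene or sequence and say nothing of the full-length transcript.

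The mature strands that carry the results below are given 5' to 3' with the seed in capitals, from the RefSeq annotation of GRCm38.p6. The first is the endothelial miR-126a-3p at chr2:26591402-26591423 on the plus strand. The next lines are from multiciliated cells or share their seed GGCAGUG, and differ from each other only outside it.
miR-126a-3p: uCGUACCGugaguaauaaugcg
miR-449a-5p: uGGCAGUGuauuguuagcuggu
miR-449c-5p: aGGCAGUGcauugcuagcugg
miR-34b-5p: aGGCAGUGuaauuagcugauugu
miR-34a-5p: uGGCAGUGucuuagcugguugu
The next set marks other tissues: miR-192-5p is made in liver, kidney and gut, miR-802-5p in liver and pancreas, miR-217-5p in exocrine pancreas, miR-499-5p in heart muscle and miR-206-3p in skeletal muscle.
miR-192-5p: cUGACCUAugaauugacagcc
miR-802-5p: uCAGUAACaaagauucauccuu
miR-217-5p: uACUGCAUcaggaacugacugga
miR-499-5p: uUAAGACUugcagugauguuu
miR-206-3p: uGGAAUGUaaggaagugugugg
The last set is from the imprinted Dlk1-Dio3 locus on chromosome 12, where a long maternal transcript unit holds a large cluster of miRNA and snoRNA genes, with miR-127-3p at chr12:109592888-109592909 and miR-541-5p at chr12:109742422-109742446, both on the plus strand.
miR-127-3p: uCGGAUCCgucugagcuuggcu
miR-434-3p: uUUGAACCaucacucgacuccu
miR-379-5p: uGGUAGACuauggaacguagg
miR-411-5p: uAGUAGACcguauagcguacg
miR-541-5p: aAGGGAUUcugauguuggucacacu

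Before any comparison, each library was set against the tissue on its label. Over 730 miRNAs, the centred log2 profile of each library was correlated with the median profile of every tissue, and 166 of the 686 libraries of the series were closest to a tissue other than their own. Of the 28 lung libraries, 20 were closest to lung and 8 to another tissue. FL 14, VGC 13 and VGC 14 were closest to brown adipose tissue (BAT), HGC 12 and HGC 16 to spleen, HGC 3 to heart, HGC 5 to liver and VGC 4 to kidney. These 8 went against their labels, which still name them here. All 8 lay in 11 of the 44 sequencing pools, and these 11 pools held 168 libraries of the series and 11 of lung. The other 3 lung libraries in them, FL 11, VGC 3 and VGC 11, were closest to lung. Outside the 11 pools no lung library was closest to another tissue, which left 17 libraries (8 FL, 5 HGC and 4 VGC), the kept libraries below. By age these were 5 and 3 FL mice, 2 and 3 HGC mice and 3 and 1 VGC mice of 3 and 8 months.

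**Figure D1:**
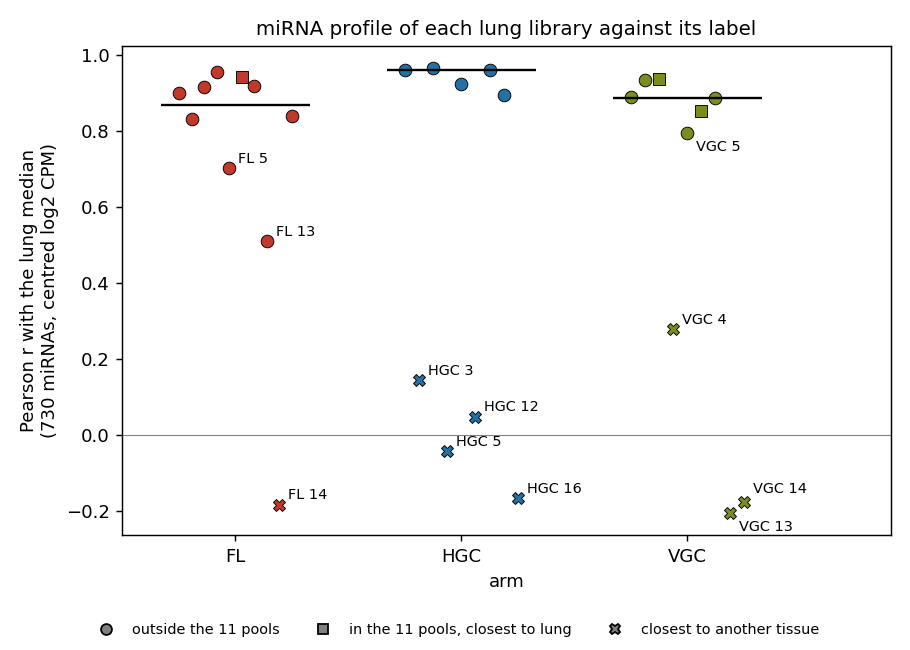
Pearson correlation of each of the 28 lung libraries with the median lung profile over 730 miRNAs (y axis), by arm (x axis); circles are libraries outside the 11 pools, squares libraries in those pools closest to lung, crosses libraries closest to another tissue, and black lines the median of the circles. The 8 crosses lie at 0.278 or below, while among the circles FL 13 is the lowest at 0.509.

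Counts summed over the 7 classes ranged from 26.0 to 175 M (M for mega) per library (median 59.1 M), and those on miRNAs from 1.57 to 13.8 M (median 6.15 M). In the kept libraries the miRNA counts ranged from 4.42 to 12.2 M. Levels of miRNAs are given as CPM, the count on a miRNA scaled to 1 M counts on miRNAs in that library. At this depth a miRNA at 1 CPM had at least 4 reads, and 0 counts allow at most 3 at 95% confidence.

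miRNAs of other tissues stood high in several of these 8 libraries. The level of miR-122-5p, the dominant miRNA of hepatocytes, was 360672 CPM in HGC 5, against 13.9 to 487 in the kept FL, 76.5 to 748 in the kept HGC and 73.2 to 995 in the kept VGC libraries. The cardiac miR-499-5p stood at 1757 CPM in HGC 3 and at 0.571 to 7.84 in all kept libraries. The pancreatic miR-217-5p stood at 103 CPM in HGC 16 and at 0.147 to 4.60 in the kept libraries. For each of these markers the highest of the 28 libraries was thus an HGC library.

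**Figure D2:**
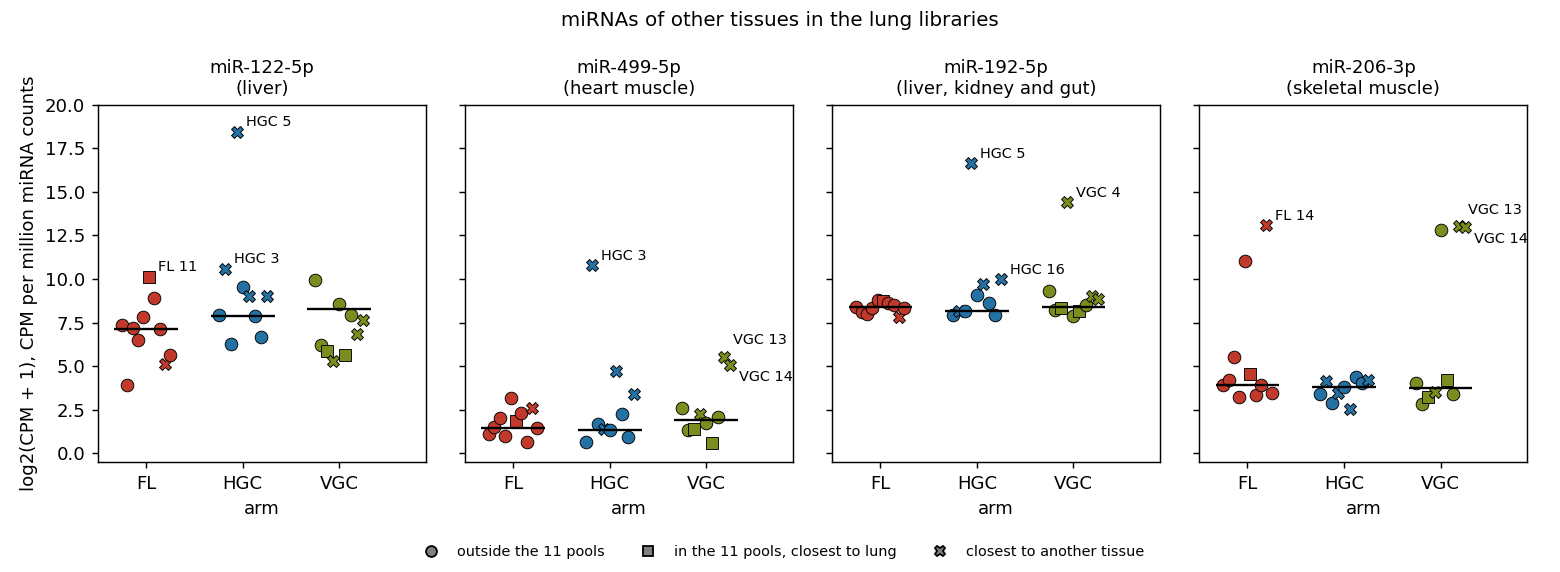
log2(CPM + 1) of 4 miRNAs of liver, heart muscle, liver with kidney and gut, and skeletal muscle (y axes) in the 28 lung libraries by arm (x axes), with symbols and lines as in the plot of tissue profiles. HGC 5 or HGC 3 stands far above all circles for the first 3, with VGC 4 also high for miR-192-5p, while for miR-206-3p the circles FL 5 and VGC 5 also stand high.

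The first comparison asked what differed in flight from mice in the same housing on Earth. With all 28 libraries, 30 of 1000 tested miRNAs (3%) were called between FL and HGC, 9 higher in FL (0.9%) and 21 lower (2.1%), at an adjusted p under 0.05 by edgeR's quasi-likelihood test with Benjamini-Hochberg adjustment. With age, plate or the replicate block as a term, or by the Wilcoxon test, 0 were called. For all 21 that fell, the highest library was one of those closest to another tissue. Their highest medians in the series were in liver for 8, in pancreas for 7, in heart for 3, in brain for 2 and in mesenteric fat for 1. The fitted log2 fold change of miR-122-5p was -8.28 with all libraries and -0.94 in the kept libraries, that of miR-802-5p went from -7.92 to -0.65, that of miR-192-5p from -5.97 to -0.18, and that of miR-499-5p from -6.63 to 0.41. The median over the 21 was -4.07 with all libraries, and in the kept ones it was -0.52 over the 20 that could be tested there (all but miR-122b-5p).

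Of the 9 miRNAs that were higher in FL, 5 were led by FL 13 (miR-134-5p, miR-379-5p, miR-494-3p, miR-540-3p and miR-377-3p, all of the Dlk1-Dio3 locus) and 2 by FL 14 (miR-206-3p and miR-5130). The remaining 2 were led by FL 16 (miR-7002-3p) and FL 2 (miR-503-3p), and miR-503-3p was the only one of the 30 with its highest tissue median in lung. Their median log2 fold change was 2.80 with all libraries and 2.74 in the kept ones. Of the 29 that could be tested in the kept libraries, 24 kept their direction and the smallest adjusted p was 0.425 (edgeR). Between FL and VGC, and between HGC and VGC, 0 of 1000 were called with all 28 libraries by edgeR, while DESeq2 called 6 between FL and VGC.

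In the 17 kept libraries 0 of 929 miRNAs (0%) were called by edgeR in any of FL vs. HGC, FL vs. VGC and HGC vs. VGC. An unadjusted p under 0.05 was found for 109, 86 and 24 of them, and DESeq2 also called 0 in both comparisons of FL. Of the 109 and the 86, 21 and 11 were listed miRNAs of the Dlk1-Dio3 locus, whose difference rested on the single library FL 13 (below). With the 3 lung-like libraries of the pools put back (20 libraries), 0 of 949 were called. The FL libraries stand in both of their comparisons, so these are not independent of each other, and values against HGC and VGC are given side by side below. What follows describes members that did not pass the adjusted threshold in the kept libraries unless a call is named.

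The smallest unadjusted p among the abundant miRNAs was that of miR-126a-3p. Its level was 51755, 33804, 33360, 33188, 27771, 60257, 41383 and 38640 CPM in FL 1, 2, 3, 4, 5, 12, 13 and 16. In HGC 2, 4, 11, 13 and 14 it was 53963, 64550, 66096, 75495 and 69457 CPM, and in VGC 1, 2, 5 and 12 it was 57850, 52263, 45730 and 117744 CPM. Of the 8 FL libraries, 7 are below the lowest HGC library, FL 12 lies within the HGC range, and FL 1 and FL 12 lie within the VGC range. The means were 40020 ± 10894 (SD, n = 8) in FL, 65912 ± 7891 (n = 5) in HGC and 68397 ± 33269 (n = 4) in VGC. The log2 fold change was -0.87 (SE 0.21, p = 0.000626, adjusted p = 0.425, edgeR) against HGC and -0.91 (SE 0.23, p = 0.000691, adjusted p = 0.214) against VGC, which are folds of 0.547 and 0.531. With all 28 libraries the log2 fold change was -0.27 (SE 0.38) against HGC and -0.42 (SE 0.38) against VGC.

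An exact two-sided permutation test of this single miRNA on log2 CPM gave a difference of -0.754 against HGC (p = 0.00311, n = 8 and 5) and of -0.710 against VGC (p = 0.0364, n = 8 and 4). With the lung-like libraries of the pools, where FL 11 had 63836, VGC 3 66186 and VGC 11 29322 CPM, these became -0.675 (p = 0.00599, exact permutation test) and -0.454 (p = 0.133). The p-values of this test are unadjusted and come from the same libraries as the fits above, so they are not independent support. Leaving out each library in turn, the edgeR log2 fold change stayed between -0.97 and -0.75 against HGC and between -1.01 and -0.60 against VGC, where -0.60 was without VGC 12. When libraries were scaled by their total over the 7 classes, the log2 fold change was -0.52 and -0.17, but there the median over all tested miRNAs was 0.44 and 1.00. In bulk lung, fewer endothelial cells and less miR-126a-3p per cell cannot be told apart.

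**Figure D3:**
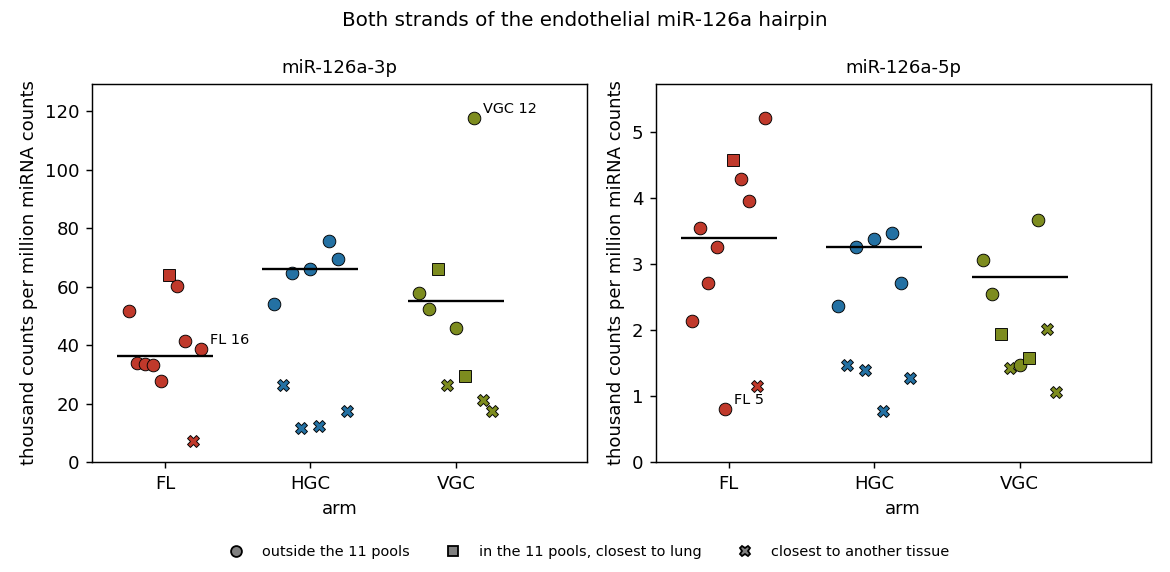
Levels of both strands of the miR-126a hairpin in units of 1000 CPM over miRNA counts (y axes) in the 28 lung libraries by arm (x axes), with symbols and lines as in the plot of tissue profiles. The medians of the kept libraries for miR-126a-3p are 36222 CPM in FL, 66096 in HGC and 55057 in VGC, while those of miR-126a-5p lie close together.

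The other strand of the same hairpin did not show this pattern. The level of miR-126a-5p was 799 CPM at the lowest (FL 5) and 5208 CPM at the highest (FL 16) of the kept FL libraries, 2358 to 3462 CPM in HGC and 1463 to 3669 CPM in VGC, so that FL covers the range of both controls. Its log2 fold change was -0.06 against HGC and 0.13 against VGC. The difference between the strands was not tested.

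By age, miR-126a-3p ranged from 27771 to 51755 CPM (median 33360, n = 5) in FL mice of 3 months and from 38640 to 60257 CPM (n = 3) in those of 8 months. HGC mice had 53963 and 64550 CPM at 3 months and 66096 to 75495 CPM at 8 months (n = 3). VGC mice had 45730 to 57850 CPM at 3 months (n = 3), and the only VGC mouse of 8 months had 117744 CPM. At each age the FL median lies below that of HGC, and the older mice of each arm have the higher median, in 1 to 5 mice per cell. The age contrast called 0 miRNAs in the kept libraries and 0 with all 28 (edgeR).

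In lung of mice returned alive (LAR), with the same pools left out, miR-126a-3p ranged from 47262 to 86755 CPM in FL (median 62630, n = 6), from 32628 to 103167 in HGC (61474, n = 10) and from 37621 to 85448 in VGC (55148, n = 6). The arms overlap there, with log2 fold changes of 0.06 (SE 0.23) against HGC and 0.09 (SE 0.26) against VGC. The difference between the extractions was -0.93 (SE 0.34, p = 0.0096, adjusted p = 0.29, edgeR) for FL vs. HGC and -0.81 (SE 0.38, p = 0.036, adjusted p = 0.69) for FL vs. VGC. In LAR the time in flight, the return and the handling of the lung differ from TERM together and cannot be told apart.

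For the multiciliated airway set no difference with flight was called. The level of miR-449a-5p was 232, 502, 316, 254, 159, 310, 357 and 687 CPM in FL 1, 2, 3, 4, 5, 12, 13 and 16, against 396, 275, 176, 234 and 197 CPM in HGC 2, 4, 11, 13 and 14 and 383, 560, 441 and 150 CPM in VGC 1, 2, 5 and 12. The arms overlap, although FL 2, FL 16, VGC 2 and VGC 5 lie above every HGC library. The log2 fold change was 0.27 (SE 0.36) against HGC and -0.38 (SE 0.38) against VGC, and the exact two-sided permutation test on log2 CPM gave p = 0.269 and p = 0.812. Of the 9 members of the list, 6 passed the filter on low counts and 0 were called, with a median log2 fold change of -0.05 against HGC and -0.14 against VGC, beside 0.03 and -0.01 over all tested miRNAs. The summed level of the list was 3234 to 7087 CPM in FL, 3546 to 5322 CPM in HGC and 3256 to 5675 CPM in VGC, against 28.5 to 561 CPM in the 8 libraries closest to another tissue. Over the series, miR-34b-3p, miR-34b-5p, miR-34c-5p, miR-34c-3p and miR-126a-3p had a lung median at least 2 times that of any other tissue, a list drawn up after the values were seen.

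The other cell type lists are given by counts and medians, each against HGC first and VGC second, and 0 of their members were called by edgeR. The white blood cell list (miR-142a, miR-150-5p, miR-223-3p, miR-155-5p, miR-146a-5p) had medians of -0.01 and 0.03 over 6 members, with miR-223-3p, a neutrophil and macrophage miRNA, at 0.08 (SE 0.27) and -0.00 (SE 0.29). The red blood cell list had medians of 0.30 and 0.10 over 5 members, and its leading member miR-451a, which guides red cell maturation, was at -0.37 (SE 0.27) and -0.03 (SE 0.29). The smooth muscle list, miR-143 and miR-145a of vessel and airway walls, had medians of -0.15 and -0.19 over 4 members, and its summed level of 50362 to 69728 CPM in FL overlapped 50652 to 66970.0 CPM in HGC and 46014 to 68027 CPM in VGC. The mesenchymal miR-199 and miR-214 list stood at -0.13 and -0.10 over 5 members.

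Epithelium was covered by the miR-200 family, which keeps cells epithelial by holding down Zeb1 and Zeb2. Its 5 members had medians of 0.17 and 0.20, and miR-200c-3p had the largest difference against HGC at 0.53 (SE 0.23, p = 0.0282, adjusted p = 0.425). The summed level of the family was 14839 to 30328 CPM in FL, 12114 to 15186 CPM in HGC and 11450 to 19286 CPM in VGC. The sensory cluster with miR-375-3p stood at -0.05 and 0.15 over 4 members. The FL range thus reached above both controls for the miR-200 family without a call, with FL 13 the highest and FL 2 next at 22745 CPM. Without FL 13 the medians of the family were 0.10 and 0.16.

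Among the broad families, the let-7 and miR-98 list, which restrains growth genes, had 0 of 9 members above 0 against HGC (median -0.39) and 1 of 9 against VGC (median -0.38). Without FL 5 and VGC 5 the second median was 0.02. Scaled by the total of the 7 classes, let-7a-5p stood at -0.11 and 0.87, beside the median of 0.44 and 1.00 over all miRNAs on that scale. The miR-30 list had 0 of 5 members above 0 in both, with medians of -0.27 and -0.51. The miR-17-92 cluster and its copies, known for growth of the embryonic lung epithelium, had 9 of 13 members above 0 in both, with medians of 0.21 and 0.24. The miR-15 and miR-16 list had medians of 0.01 and 0.14, and the miR-29 and miR-21 list, which bears on extracellular matrix, 0.00 and 0.34. The list of p53, hypoxia and inflammation miRNAs stood at 0.00 and -0.31 over 5 of its 6 members, with miR-210-3p, the hypoxia miRNA, at 0.26 (SE 0.23) and 0.13 (SE 0.25). Members of a family share most of their bases and can share reads, and 0 members of any of these lists were called.

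The most abundant miRNAs over the 28 libraries (miR-26a-5p, miR-451a, let-7c-5p, let-7a-5p, let-7b-5p, let-7f-5p, miR-126a-3p, miR-143-3p, miR-181a-5p and miR-24-3p) had log2 fold changes of -0.87 to 0.17 against HGC and -0.91 to 0.28 against VGC. In both comparisons miR-126a-3p was the lowest of the 10.

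Few miRNAs separated the arms completely. In the kept libraries, FL did not overlap HGC for 3 of 929 miRNAs (0.323%), all higher in FL, and did not overlap VGC for 2 (0.215%). Among 929 miRNAs, arms this small can separate by chance for a few, and how many was not worked out. The values of these members are therefore a description. The level of miR-130a-3p, an angiogenic miRNA, was 5610 to 11154 CPM (median 7142) in FL, and 4145, 5543, 4929, 5583 and 5287 CPM in HGC 2, 4, 11, 13 and 14. That of miR-185-5p was 537 to 865 CPM in FL and 395 to 501 CPM in HGC, and that of miR-361-5p 537 to 1342 CPM in FL and 445 to 513 CPM in HGC. Their log2 fold changes were 0.41 (SE 0.18), 0.39 (SE 0.19) and 0.53 (SE 0.24), each with an adjusted p of 0.425 (edgeR). Against VGC, where miR-130a-3p had 6565 CPM in VGC 1, the arms overlapped for each of the 3. FL stood above VGC for miR-188-3p, at 3.92 to 8.29 CPM against 2.26 to 3.71 CPM, and below it for miR-802-3p, at 0 to 0.374 CPM against 0.554 to 2.39 CPM. For miR-802-3p these are 0 to 3 reads per library in FL and 3 to 13 in VGC, with 3 reads in both FL 12 and VGC 5, so that the arms do not separate by reads.

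Other miRNAs with small unadjusted p were miR-1839-3p and miR-540-3p against HGC and miR-802-3p and miR-217-5p against VGC. No FL library had over 3 reads of miR-802-3p. It thus passed the low-count filter through control libraries only, and its p is no support for a difference. The level of miR-1839-3p was 24.6 to 48.7 CPM in FL, 34.2 to 99.2 CPM in HGC and 30.9 to 72.0 CPM in VGC, with log2 fold changes of -1.01 and -0.78. The miRNAs of exocrine pancreas and liver stood at low levels with negative log2 fold changes in both comparisons. The pancreas list summed to 0.736 to 3.92 CPM in FL, 1.44 to 3.05 CPM in HGC and 1.36 to 11.8 CPM in VGC (median log2 fold changes -0.60 and -2.32). The liver list summed to 14.3 to 498, 78.6 to 769 and 75.7 to 1027 CPM in the same order (-0.92 and -1.63).

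Striated muscle miRNAs stood high in single libraries of FL and VGC. The level of miR-206-3p was 2125 CPM in FL 5 and 7247 CPM in VGC 5, and 6.15 to 44.9 CPM in the other kept libraries. The list of 7 muscle miRNAs summed to 38677 CPM in FL 5, 29265 CPM in VGC 5 and 13614 CPM in FL 3, and to 2376 to 8983 CPM in the rest. FL 5 and VGC 5 also had low correlations with the lung median, 0.702 and 0.795. The log2 fold change of miR-206-3p was 4.21 against HGC, and 0.28 without FL 5. Against VGC it was -3.24, and between -7.14 and 4.60 when each library was left out in turn. In the kept libraries the median of the list was 0.51 against HGC and -0.33 against VGC, with 0.16 and -0.04 without FL 5 and VGC 5.

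A single flight library set the pattern of the Dlk1-Dio3 locus. FL 13 stood above all other 16 kept libraries for 29 of 29 listed miRNAs of the locus. Their summed level was 21051 CPM in FL 13, which is 2.11% of its miRNA counts, against 471 to 1027 CPM, or 0.0471% to 0.103%, in the others. The level of miR-127-3p was 9841 CPM in FL 13 and 192 to 535 CPM elsewhere. For the 5 members with a median of at least 10 CPM in the other libraries, the level in FL 13 was 23.4 to 39.2 times that median. The median log2 fold change of the list was 2.15 against HGC and 1.92 against VGC with FL 13, and 0.23 and 0.05 without it, so that the other 7 FL libraries did not share this level.

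**Figure D4:**
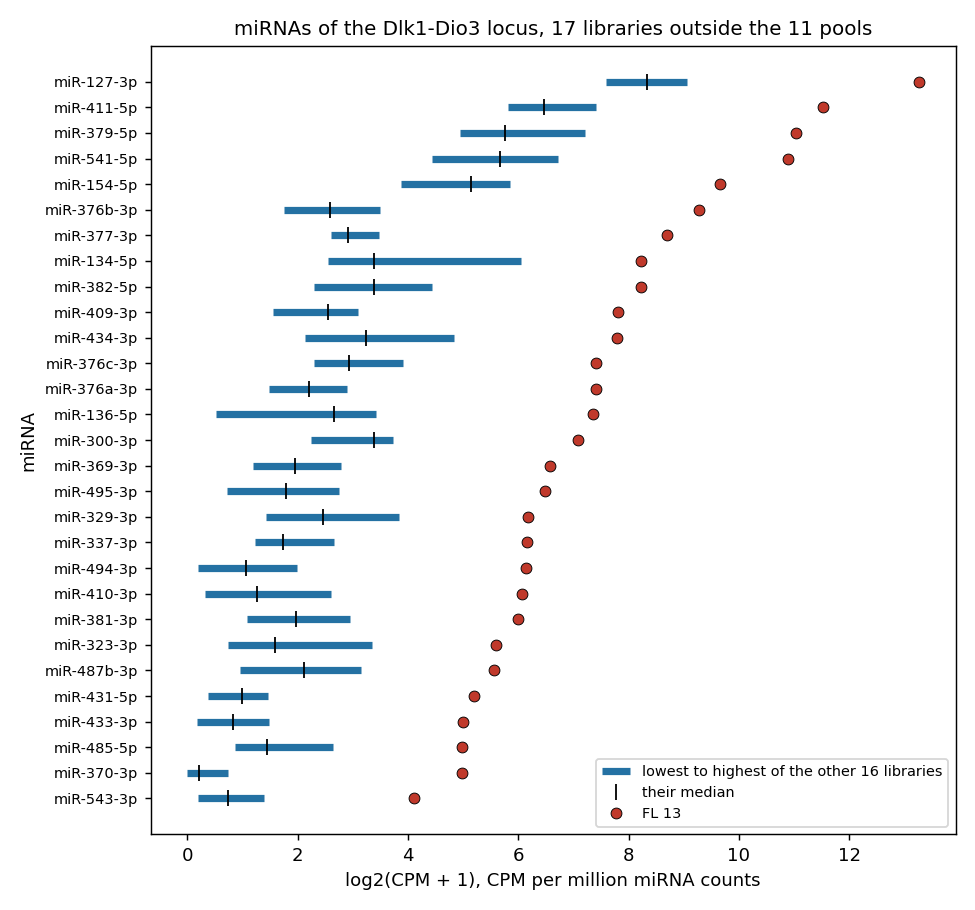
log2(CPM + 1) (x axis) of the 29 listed miRNAs of the Dlk1-Dio3 locus (y axis); the red point is FL 13, the blue bar spans the lowest to the highest of the other 16 kept libraries and the tick is their median. The red point lies to the right of the bar for 29 of 29 miRNAs.

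Other RNA of the same locus stood high in FL 13 as well. All but Meg3 of the RNAs named here were chosen for their level in FL 13, so their values are a description. The snoRNA AF357341 had 948 CPM of snoRNA counts in FL 13, against 13.9 to 38.7 CPM in the other FL libraries and 8.22 to 35.8 CPM in HGC. The leading lncRNA row of Rian stood at 24774 CPM of lncRNA counts in FL 13 and 887 to 1288 CPM in HGC. Mirg, the transcript that hosts many of these miRNAs, stood at 592 CPM in FL 13, at 146 and 117 CPM in FL 2 and FL 16, and at 14.5 to 32.3 CPM in HGC. Meg3, the first gene of the maternal unit, had 58.1 to 138 CPM in FL, 95.5 to 224 CPM in HGC and 50.8 to 340 CPM in VGC.

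Other miRNAs were then looked for by their level in FL 13 itself, so that their number is no measure of how many were raised. With at least 100 CPM in FL 13 and over 2 times the highest other kept library, 26 were found. Of these, 15 were in the list, whose other 14 members had under 100 CPM there. Of the other 11, 9 (miR-136-3p, miR-299a-5p, miR-337-5p, miR-341-3p, miR-369-5p, miR-376b-5p, miR-379-3p, miR-411-3p and miR-434-5p) lie between the outermost hairpins of the list and so in the same locus. Of the 2 outside it, miR-135a-5p had 162 CPM in FL 13 and 2.71 to 12.1 CPM elsewhere, and miR-146b-5p, an inflammation miRNA, had 3814 CPM against 368 to 1066 CPM. The brain list, which includes miR-124-3p and miR-9-5p, summed to 72.9 CPM in FL 13 and to 46.8 to 445 CPM over all kept libraries. Over the brain libraries of the series the Dlk1-Dio3 list summed to 13560 to 112464 CPM (median 51262), and over lung libraries its median was 640 CPM. The highest library was at 19775 CPM in pancreas (median 3124), 13072 in brown fat (1602) and 12056 in diaphragm (1826), with the 11 pools included. In the 10 other tissues of the same FL mouse that were analysed here the sum lay between 164 and 2571 CPM, and 3 of these libraries (brown fat, spleen and thymus) were in the 11 pools.

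Among the other RNA classes, tRNA fragments alone gave calls in the kept libraries by edgeR with TMM scaling. CPM here is taken over tRNA counts after TMM scaling, which sets libraries to a common middle of fold changes. Between FL and HGC, 6 of 403 tRNA genes (1.49%) were called, all higher in FL and all of arginine tRNA with anticodon ACG, with log2 fold changes of 2.29 to 2.42 (adjusted p = 0.0363, edgeR). These 6 genes held 3 distinct rows of counts. The level of tRNA-Arg-ACG-1-1 was 14.5, 66.0, 23.9, 31.8, 48.0, 28.1, 459 and 55.0 in FL 1, 2, 3, 4, 5, 12, 13 and 16. In HGC 2, 4, 11, 13 and 14 it was 18.1, 17.4, 18.7, 16.0 and 20.7, and in VGC 1, 2, 5 and 12 it was 14.2, 32.9, 16.5 and 18.6. Apart from FL 1, each FL library was above all HGC libraries, and FL 13 was far above all. Without FL 13, 0 tRNA genes were called against HGC.

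Between FL and VGC, 24 of 403 tRNA genes (5.96%) were called, 17 higher (4.22%) and 7 lower (1.74%) in FL. The higher ones were 6 Arg-ACG genes (log2 fold changes 2.08 to 2.27), 6 Pro-AGG genes with 1 distinct row (1.11), 4 Pro-TGG genes with 1 distinct row (1.19) and 1 Leu-TAA gene (1.78). The lower ones were 5 Val-AAC genes (-1.50 to -1.45) and 2 Val-CAC genes (-1.50 and -1.08), and the adjusted p of the 24 ranged from 0.0339 to 0.0489. Over isotypes, the median log2 fold change of proline tRNAs was 0.69 against HGC and 1.11 against VGC, and that of valine tRNAs -0.67 and -1.45, beside 0.12 and -0.18 over all tRNA genes.

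The valine and proline tRNAs also differed widely among the controls. The level of tRNA-Val-AAC-1-1 was 1911 to 15912 (median 7474) in FL, and 29987, 20751, 39512 and 5845 in VGC 1, 2, 5 and 12. In HGC 2, 4, 11, 13 and 14 it was 21467, 18216, 14438, 14662 and 14651. VGC 12 thus lies inside the FL range and the other 3 VGC libraries above it. The level of tRNA-Pro-TGG-2-1 was 373 to 1256 (median 710) in FL, 135, 349, 214 and 521 in VGC 1, 2, 5 and 12, and 244 to 537 in HGC.

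**Figure D5:**
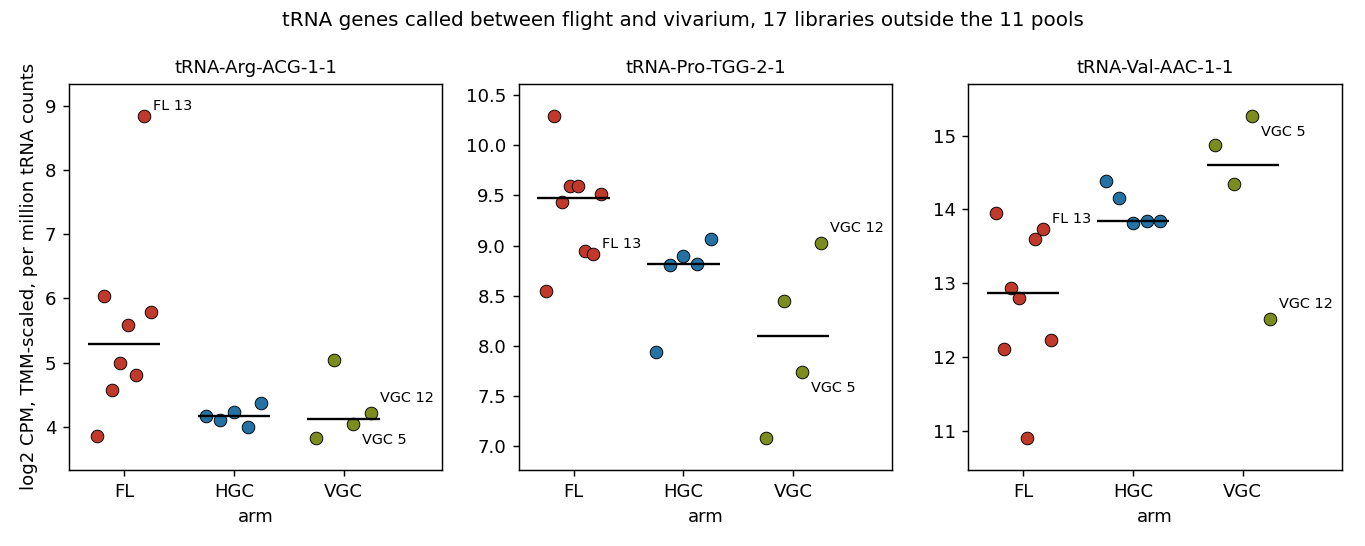
log2 of TMM-scaled CPM over tRNA counts (y axes) of 3 called tRNA genes in the 17 kept libraries by arm (x axes); points are libraries and black lines medians. FL 13 alone reaches 459 CPM for tRNA-Arg-ACG-1-1, and VGC 12 lies apart from the other VGC libraries for tRNA-Val-AAC-1-1.

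These tRNA calls rested on few libraries and on how repeats were treated. With rows of identical counts taken once, 0 were called against HGC and 0 against VGC. With the 20 lung-like libraries, and with all 28, 0 were called in both. Leaving out each kept library in turn gave 0 to 9 calls against HGC and 0 to 54 against VGC. Against HGC, 0 were called without FL 13, VGC 1, VGC 12 or any HGC library. Against VGC, 54 were called without FL 1, 3 or 4 without HGC 2, HGC 4, HGC 11 or HGC 13, and 0 without FL 2, FL 3, FL 4, VGC 1, VGC 2, VGC 5 or HGC 14. Without FL 5 and VGC 5, 6 were called against HGC and 0 against VGC. VGC 1 and VGC 5 had tRNA shares of 73.5% and 81.9% of all counts, and the TMM factors of tRNA ran from 0.286 in VGC 5 to 2.32 in FL 2.

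The share of counts on each class was compared as well. In the kept libraries snoRNA took 15.1% ± 4.02 (SD, n = 8) of counts in FL and 6.92% ± 3.75 (n = 4) in VGC (exact two-sided permutation test p = 0.0121, adjusted over 7 classes 0.0848), and miRNA took 12.8% against 6.96% (exact p = 0.0364, adjusted 0.127). tRNA took 35.0% ± 10.9 in FL, 44.0% ± 11.8 in HGC and 58.1% ± 23.4 in VGC. Against HGC the smallest adjusted p of the 7 classes was 0.277, so no class share passed the threshold in either comparison.

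In the remaining 5 classes 0 features were called in the kept libraries by edgeR with TMM scaling. Scaled by the total of the 7 classes, 185 of 830 snoRNAs were called against VGC and 6 of 247 rRNAs against HGC. Scaled by the total of the class, 11 of 789 snRNAs were called against VGC. Against VGC, leaving out a single library gave 109 of 788 snRNAs without FL 16 and 109 of 3094 lncRNAs without VGC 12. It also gave 32 of 830 snoRNAs without VGC 5 and at most 10 of 674 piRNAs, without FL 1. Against HGC it gave 44 of 247 rRNAs without FL 12 and 35 of 243 without HGC 2. An unadjusted p under 0.05 was found against HGC for 56 of 247 rRNAs, 52 of 789 snRNAs, 72 of 830 snoRNAs, 24 of 682 piRNAs and 177 of 3153 lncRNAs. Against VGC these were 18 rRNAs, 146 snRNAs, 107 snoRNAs, 87 piRNAs and 412 lncRNAs. DESeq2 called 7 piRNAs against VGC and 0 in each other case.

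Small nuclear RNA, the RNA of the spliceosome, gave 106 calls of 795 (13.3%) between FL and VGC with the 20 lung-like libraries, but 0 to 110 when each of these was left out in turn, with 0 calls in 9 of the 20 fits. Of the 106, 103 were higher in FL, all of them similar in sequence to U6, which pairs with the splice site and is present in many gene copies. Of the 795 tested, 428 were similar to U6, with 368 distinct rows of counts, and their median log2 fold change was -0.01, beside -0.02 over all snRNAs. In the kept libraries the smallest adjusted p for snRNA was 0.0956 (edgeR). With all 28 libraries, 8 snRNAs (0.994%), 8 rRNAs (3.24%) and 2 lncRNAs (0.0572%) were called between FL and HGC, and 0 of each class in the kept libraries. The nearest to the threshold in those was an adjusted p of 0.0845 for rRNA against HGC and of 0.0534 for piRNA against VGC.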

How the data were processed

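Small RNA of lung was sequenced as single reads, and the authors mapped it to GRCm39 and counted miRBase miRNAs with miRMaster. The miRNA values the authors deposited are estimated counts, as 0.790% of them are not whole. The values deposited for tRNA, rRNA, snRNA, snoRNA, piRNA and lncRNA are whole counts, and how reads on repeated genes were counted there is not given in the sources used here. Estimated counts were rounded for count tests. No UMIs were used, so intervals cover counting error only.

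Features that reached 5 reads in 10% or more of the libraries of an arm were fitted per class with edgeR 4.0.16 (quasi-likelihood, TMM, 1 model over the 3 arms, R 4.3.3, limma 3.58.1), with a call at an adjusted p (Benjamini-Hochberg) below 0.05. DESeq2 1.42.0 was an alternative. Single values and class shares were tested by exact permutation in Python 3.11.15 with scipy 1.17.1, numpy 2.4.6 and pandas 2.3.3, and drawn with matplotlib 3.10.9. Fits were repeated without the 11 pools that held libraries closest to another tissue (pools as the study lists them), and without each kept library. The edgeR step was tested on simulated counts.

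Named features were the 2 lung markers, the members of the fixed lists, the 10 most abundant miRNAs, the features with the smallest p in each comparison (5 of those called, or 3 where fewer than 3 passed), those called in both comparisons of FL, the 5 smallest p with all libraries, and tRNA and other families. Others (miR-130a-3p, miR-185-5p, miR-361-5p, miR-188-3p, miR-135a-5p, miR-146b-5p, the FL 13 features) were chosen after their values were seen. The members and lists were chosen with earlier results of these data known. Of the list members, 116 of 138 matched a mature sequence in RefSeq. In the tables, 3768 columns of other tissues were not used.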

Additional observations from a re-analysis of the deposited data

Results flagged for a closer look

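In the kept libraries, a library stood apart from its arm by Dixon's criterion (the gap to its nearest neighbor over the range of the arm) in 17 of 138 groups of values. Chance gives about 1 in 20 such groups where they are chosen without regard to their values, which many of these were not, and lists overlap their members, so that the 2 shares cannot be compared. FL 13 held 4 of them, the sum of the Dlk1-Dio3 list (0.973), miR-540-3p of the same locus (0.920), tRNA-Arg-ACG-1-1 (0.884) and the sum of the p53, hypoxia and inflammation list (0.745, at 8438 CPM). FL 5 was the highest FL library for the striated muscle list (0.690) and for miR-26a-5p (0.624). The other FL libraries were FL 12 for the liver list (0.549), FL 4 for the let-7 and miR-98 list (0.552), FL 3 for miR-1839-3p (0.554) and FL 2 for tRNA-Pro-TGG-2-1 (0.545).

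Among the controls, HGC 11 was the highest HGC library for the liver list (0.760) and miR-143-3p (0.8291), and HGC 13 for the miR-196 and miR-10 list of the Hox loci (0.766). VGC 5, which had high muscle miRNAs, was the lowest VGC library for the smooth muscle list (0.859, at 46014 CPM) and for the sensory cluster with miR-375 (0.837, at 1137 CPM). VGC 12 was the highest VGC library for miR-126a-3p (0.832) and VGC 1 for miR-802-3p (0.883).

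Differences in FL vs. control between groups of mice were called with all libraries included and not without the 11 pools. Between TERM and LAR, the difference in FL vs. HGC was called for 63 of 1115 miRNAs (5.65%) by edgeR with all libraries, led by miR-802-5p (-13.76 on the log2 scale), miR-499-5p and miR-802-3p, and for 0 of 1036 without the 11 pools. In TERM the highest library for these 3 was HGC 5 or HGC 3, which were closest to liver and heart. In LAR, FL 14 was closest to heart and FL 5 to pancreas, and these enter the same difference. The interaction of age and flight was called for 1 of 1000 miRNAs with all libraries (miR-122-5p, highest in HGC 5) and for 0 of 929 without the pools.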

How the results depend on the processing

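Leaving out the 11 pools moved calls between FL and HGC from 30 to 0 for miRNA, from 8 to 0 for rRNA and for snRNA, from 2 to 0 for lncRNA and from 0 to 6 for tRNA, and those between FL and VGC from 0 to 24 for tRNA. The TERM and LAR interaction went from 63 to 0 and that of age and flight from 1 to 0. Class shares of FL minus control then changed sign for snRNA (2.43 points) and snoRNA (0.809) against HGC and lncRNA (3.13) against VGC, from -0.331, -3.27 and -0.0266. So did the log2 fold changes of 5 of the 29 miRNAs called against HGC and tested in both, miR-499-5p (0.41), miR-192-3p (0.40), miR-194-5p (0.25), miR-137-3p (0.21) and miR-148a-3p (0.00256), all from below 0. Among others, so did those of miR-126a-5p (-0.06), let-7b-5p (-0.50), miR-196a-5p (1.05), miR-196b-5p (0.41) and miR-129-2-3p (0.13) against HGC and of miR-449a-5p (-0.38), miR-451a (-0.0327) and miR-196b-5p (0.00598) against VGC. Keeping the 20 lung-like libraries gave 0 calls for miRNA, rRNA, snRNA and lncRNA against HGC, 106 for snRNA against VGC, and shares of 2.38, 0.420 and 1.23 points. With all libraries, miRNA calls against HGC were 18 without the low-count filter, 18 with a robust prior, 19 with the class total as library size, and 0 with age, plate or the replicate block as a term or by the Wilcoxon test.

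The fold change and effect size rule, which uses no p, gave 48 and 66 miRNAs (HGC and VGC) with all libraries and 7 and 181 without the pools. With all libraries DESeq2 called 19 rRNAs, 23 snRNAs and 1 piRNA against HGC, and 6 miRNAs, 18 tRNAs, 2 rRNAs, 8 piRNAs and 3 lncRNAs against VGC. Scaling by the total of the 7 classes gave 36 tRNAs, 19 snRNAs and 5 lncRNAs against HGC and 2 miRNAs and 33 tRNAs against VGC. No low-count filter gave 0 snRNAs, 10 snoRNAs, 3 piRNAs and 37 lncRNAs against HGC and 34 lncRNAs against VGC. The class total gave 0 snRNAs, and rows with identical counts taken once gave 6 tRNAs and 0 snRNAs, against HGC. Numbers of features tested differ widely between the classes, so these counts cannot be compared between them.

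Without the pools, DESeq2 called 6 tRNAs against HGC and 37 tRNAs and 7 piRNAs against VGC, scaling by the total of the 7 classes 9 tRNAs against HGC and 185 snoRNAs against VGC, and the class total 6 tRNAs against HGC and 11 snRNAs against VGC. Under these settings, and with identical rows taken once, calls of rRNA, snRNA and lncRNA against HGC were 0 where they had been 8, 8 and 2, except for 6 rRNAs with the total of the 7 classes. Leaving out each kept library in turn gave, against HGC and VGC, 0 to 0 and 0 to 0 miRNAs, 0 to 9 and 0 to 54 tRNAs, 0 to 44 and 0 to 0 rRNAs (44 without FL 12), 0 to 0 and 0 to 109 snRNAs, 0 to 0 and 0 to 32 snoRNAs, 0 to 2 and 0 to 10 piRNAs, and 0 to 0 and 0 to 109 lncRNAs. Without the pools, FL 5 and VGC 5, there were 6 tRNAs against HGC and 7 piRNAs against VGC, and without FL 13 as well 160 snoRNAs and 3 piRNAs against VGC. Over all settings, 161 counts or shares stayed within the spread or 1.5 times the first value, 73 moved by more and 6 changed sign, and with a library left out 154 stayed and 84 moved. The causes were not tested.

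Equal mouse numbers mark different animals. Same-numbered libraries of different arms correlated in their deviations at -0.118 to 0.309 (median 0.0786, 8 pairs without the pools) and different-numbered ones at a median of 0.00129, and the replicate block moved the miRNA calls against HGC from 30 to 0 with all libraries and left them at 0 without the pools. With 4 to 8 libraries per arm, miRNAs under 5 reads were not tested.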
